A study of Mus musculus with 20 samples.

Results

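The 6 genes described here, Cma1, Mcpt4, Tpsb2, Cpa3, Kit and Fcer1a, encode proteases and receptors that mark mast cells. They were taken by symbol from the annotation of the array, which carries 18193 genes named by 1 symbol, and 8 of its 45101 probe sets (groups of short probes read as 1 value) carry one of the 6 symbols. Each gene is given by its probe set with the highest mean log2 intensity over all arrays. RNA of visceral fat came from 20 C57BL/6J mice, with 1 Affymetrix array per mouse and 5 mice in each group: HF pregnant (58% fat diet, E18.5, late gestation), HF non pregnant (58% fat diet), control pregnant (10% fat diet, E18.5) and control non pregnant (10% fat diet). The labels name no transgene, and diet and pregnancy were the only differences stated between the groups. The array labels and the study's array methods call the depot visceral fat, while the study's legend to the array figure calls it mesenteric. The labels give the same gestational age for non pregnant mice. The list was proposed with a result of these arrays in view: it was chosen by the intensities of Cma1, whose difference between diets in the response to pregnancy was known, so the values of Cma1 in that comparison and in the comparisons of groups that compose it are given as a description, without a test.

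Mast cells are tissue-resident immune cells that store proteases, histamine and heparin in granules and release them when IgE bound to their surface receptor meets antigen. Connective tissue mast cells, the kind found in fat, skin and the peritoneal cavity, are known in the mouse for chymases (Cma1 and Mcpt4), tryptase (Tpsb2) and carboxypeptidase A3 (Cpa3). They depend for growth on the receptor tyrosine kinase KIT and its ligand, and the alpha chain encoded by Fcer1a binds IgE. KIT is not restricted to mast cells: interstitial cells of Cajal, the pacemaker cells of gut muscle, also carry it.

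Promoter windows of 300 bases, from 250 bases before to 50 bases after the start of the RefSeq transcript (assembly GRCm38.p6), were read for 5 of the 6 genes. They are shown because 4 of these genes moved together from mouse to mouse while Kit did not. All are printed 5′ to 3′ on the strand of the gene. Capitals mark matches to either of 2 sets of words, searched on both strands. The GATA set holds AGATAA as well as AGATAG, together with TGATAA as well as TGATAG, and the E-box set holds CACGTG as well as CATGTG. None of the marked words overlap. The windows lie at chr14:55944626-55944925 (minus strand) for Cma1, chr14:56062261-56062560 (minus strand) for Mcpt4, chr3:20242132-20242431 (minus strand) for Cpa3, chr1:173227180-173227479 (minus strand) for Fcer1a and chr5:75574737-75575036 (plus strand) for Kit.
Cma1: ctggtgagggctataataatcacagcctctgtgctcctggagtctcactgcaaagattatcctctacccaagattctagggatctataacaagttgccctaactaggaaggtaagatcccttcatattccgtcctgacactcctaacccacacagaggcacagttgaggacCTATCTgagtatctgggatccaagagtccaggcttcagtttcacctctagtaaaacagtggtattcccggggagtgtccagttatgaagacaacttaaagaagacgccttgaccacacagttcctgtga
Mcpt4: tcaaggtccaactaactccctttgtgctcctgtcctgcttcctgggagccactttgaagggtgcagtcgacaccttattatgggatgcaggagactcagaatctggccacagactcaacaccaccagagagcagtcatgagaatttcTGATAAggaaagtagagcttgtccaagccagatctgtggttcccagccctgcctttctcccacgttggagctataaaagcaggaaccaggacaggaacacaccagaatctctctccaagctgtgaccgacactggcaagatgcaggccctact
Cpa3: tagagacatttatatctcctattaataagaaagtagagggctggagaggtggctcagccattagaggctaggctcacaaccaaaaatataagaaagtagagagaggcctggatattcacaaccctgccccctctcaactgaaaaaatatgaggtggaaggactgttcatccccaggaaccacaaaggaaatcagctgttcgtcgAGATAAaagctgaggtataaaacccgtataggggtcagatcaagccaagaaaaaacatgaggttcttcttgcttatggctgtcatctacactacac
Fcer1a: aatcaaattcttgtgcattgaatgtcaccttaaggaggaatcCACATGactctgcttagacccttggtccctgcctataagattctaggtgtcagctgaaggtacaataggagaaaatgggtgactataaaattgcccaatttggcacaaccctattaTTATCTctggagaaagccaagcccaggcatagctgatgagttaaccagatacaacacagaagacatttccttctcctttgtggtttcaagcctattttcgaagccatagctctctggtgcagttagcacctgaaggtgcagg
Kit: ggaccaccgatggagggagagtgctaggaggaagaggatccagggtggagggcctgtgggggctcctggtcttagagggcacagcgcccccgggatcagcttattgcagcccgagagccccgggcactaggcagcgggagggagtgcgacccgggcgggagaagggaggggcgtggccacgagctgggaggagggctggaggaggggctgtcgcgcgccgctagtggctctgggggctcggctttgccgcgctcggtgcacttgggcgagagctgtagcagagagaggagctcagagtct
Counted from the transcript start, with the base just before it as -1, a GATA word began at -79 in Cma1, -103 in Mcpt4, -46 in Cpa3 and -92 in Fcer1a. An E-box word began at -208 in Fcer1a. The Kit window held neither. Of 32851 RefSeq promoter windows of this length, 29.8% held at least 1 GATA word and 20.4% held an E-box word, so a single match is common and describes the letters only.

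Array medians lay between 60.69 and 64.73 and 17646 to 18833 probe sets per array exceeded an intensity of 100, the level below which values are treated as low here. The deposited intensities had been normalized by robust multi-array average on the linear scale, and comparisons use their log2. The test covered 19802 probe sets that exceeded 100 on at least 5 of the 20 arrays, which included 4 of the 6 genes: Kit exceeded 100 on all 20 arrays, Cpa3 on 19, Cma1 on 16 and Mcpt4 on 7. Of the 7 arrays on which Mcpt4 exceeded 100, 4 were from HF pregnant mice, so this gene entered the test through the group in which it was highest and is given without a test wherever HF pregnant mice enter a comparison. Tpsb2 (44.5 to 68.1) and Fcer1a (13.1 to 51.7) never exceeded 100 and were not tested. The values closest to 100 were 100.5 for Cma1 in a control pregnant mouse and 97.9 in a HF non pregnant mouse. As markers of the cell type, 4 of the 6 genes were therefore present above 100 in at least some mice, with the IgE receptor chain and tryptase below it. Intensities of different probe sets are not on a common scale and are not compared with each other.

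Both chymases had their highest group mean in HF pregnant mice. Values of single mice are given in the order of mouse 1 to 5 of a group. Cma1, the mast cell chymase, had intensities of 197.2, 174.3, 175.9, 310.8 and 287.6 in HF pregnant mice, against 97.9, 87.5, 129.5, 146.3 and 80.2 in HF non pregnant mice. It had 79.2, 159.0, 100.5, 142.4 and 118.6 in control pregnant mice, against 123.3, 172.6, 193.2, 105.3 and 216.3 in control non pregnant mice. Every HF pregnant mouse lay above every HF non pregnant and every control pregnant mouse, and the HF pregnant and control non pregnant ranges overlapped. On the log2 scale Cma1 averaged 7.80 ± 0.40 for HF pregnant mice, 6.72 ± 0.37 for HF non pregnant mice, 6.86 ± 0.40 for control pregnant mice and 7.29 ± 0.44 for control non pregnant mice (SD, n = 5 each). The HF pregnant minus HF non pregnant difference was 1.08 (SE 0.24), a fold of 2.11, and the HF pregnant minus control pregnant difference was 0.93 (SE 0.24), a fold of 1.91. On the control diet the sign was the opposite, with control pregnant minus control non pregnant at -0.43 (SE 0.24), and HF non pregnant minus control non pregnant at -0.57 (SE 0.24). These values add up to the difference between diets in the response to pregnancy by which the gene was chosen, 1.502 (SE 0.34).

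Mcpt4, the chymase known as mouse mast cell protease 4, had 106.9, 97.1, 109.1, 214.1 and 195.9 in HF pregnant mice, against 67.1, 62.2, 90.9, 97.8 and 67.7 in HF non pregnant mice. It had 56.4, 107.9, 82.7, 94.2 and 79.6 in control pregnant mice, against 82.2, 95.0, 120.2, 62.1 and 137.1 in control non pregnant mice. HF pregnant and HF non pregnant mice overlapped by a single pair, 97.1 and 97.8, and most values outside the HF pregnant group were below 100. Its HF pregnant minus HF non pregnant difference was 0.85 (SE 0.25) and its HF pregnant minus control pregnant difference was 0.73 (SE 0.25), both as a description. With intensities under 100 set to 100, these differences were 0.46 and 0.44.

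Cpa3, the carboxypeptidase stored in mast cell granules, had 238.4, 176.5, 229.3, 481.3 and 383.3 in HF pregnant mice, against 105.4, 125.5, 186.1, 212.3 and 130.9 in HF non pregnant mice. It had 92.2, 253.8, 172.2, 238.6 and 169.5 in control pregnant mice, against 180.5, 239.5, 227.0, 143.0 and 298.6 in control non pregnant mice. A pair of HF pregnant mice, at 481.3 and 383.3, lay above all other mice, and the other 3 lay within the ranges of both control groups. Of these 3, only the mouse at 176.5 also lay within the range of HF non pregnant mice. The HF pregnant minus HF non pregnant difference was 0.94 (SE 0.30, limma adjusted p 0.688) and the HF pregnant minus control pregnant difference was 0.69 (SE 0.30, adjusted p 0.354), neither past the threshold of 0.05. Control pregnant minus control non pregnant was -0.27 (SE 0.30, adjusted p 0.963).

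Tpsb2, a tryptase, showed little spread. It read 53.4 to 65.1 for HF pregnant mice, 44.5 to 62.6 for HF non pregnant mice, 52.6 to 62.0 for control pregnant mice and 50.8 to 68.1 for control non pregnant mice, all under 100. Its largest difference between groups was 0.17 (95% interval -0.03 to 0.37), HF pregnant minus HF non pregnant. The second Tpsb2 probe set read 37.6 at most.

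Of the receptors, Fcer1a varied like the chymases, although at low intensities. It had 33.1, 22.8, 23.3, 51.7 and 48.0 in HF pregnant mice, against 15.6, 16.2, 19.8, 22.2 and 16.9 in HF non pregnant mice. It had 13.9, 31.6, 19.4, 26.9 and 19.5 in control pregnant mice, against 15.9, 20.2, 30.4, 13.1 and 38.2 in control non pregnant mice. HF pregnant and HF non pregnant mice did not overlap, by a margin of 22.8 against 22.2, while HF pregnant and control pregnant mice did. The differences, given without a test because the probe set was under 100 throughout, were 0.91 (95% interval 0.29 to 1.52) for HF pregnant minus HF non pregnant and 0.66 (0.04 to 1.27) for HF pregnant minus control pregnant.

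Kit, which encodes the receptor for stem cell factor, had the sign of the chymases in each comparison of groups, with wide intervals that included 0. It had 648.6, 247.0, 422.4, 557.0 and 355.4 in HF pregnant mice, against 267.4, 357.4, 575.0, 554.6 and 383.5 in HF non pregnant mice. It had 139.1, 266.2, 301.6, 553.6 and 487.6 in control pregnant mice, against 757.5, 573.3, 251.4, 656.4 and 334.9 in control non pregnant mice. All 4 groups overlapped, and the spread within a group was wide, with an SD of 0.46 to 0.79 on the log2 scale. The HF pregnant minus HF non pregnant difference was 0.04 (95% interval -0.75 to 0.83, adjusted p 1), an interval that allows changes in either direction. HF pregnant minus control pregnant was 0.43 (SE 0.38, adjusted p 0.593) and control pregnant minus control non pregnant was -0.60 (SE 0.38, adjusted p 0.963). The second Kit probe set, under 100 in every mouse (37.7 to 71.7), varied with the first over the 20 mice (r = 0.834).

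**Figure D1:**
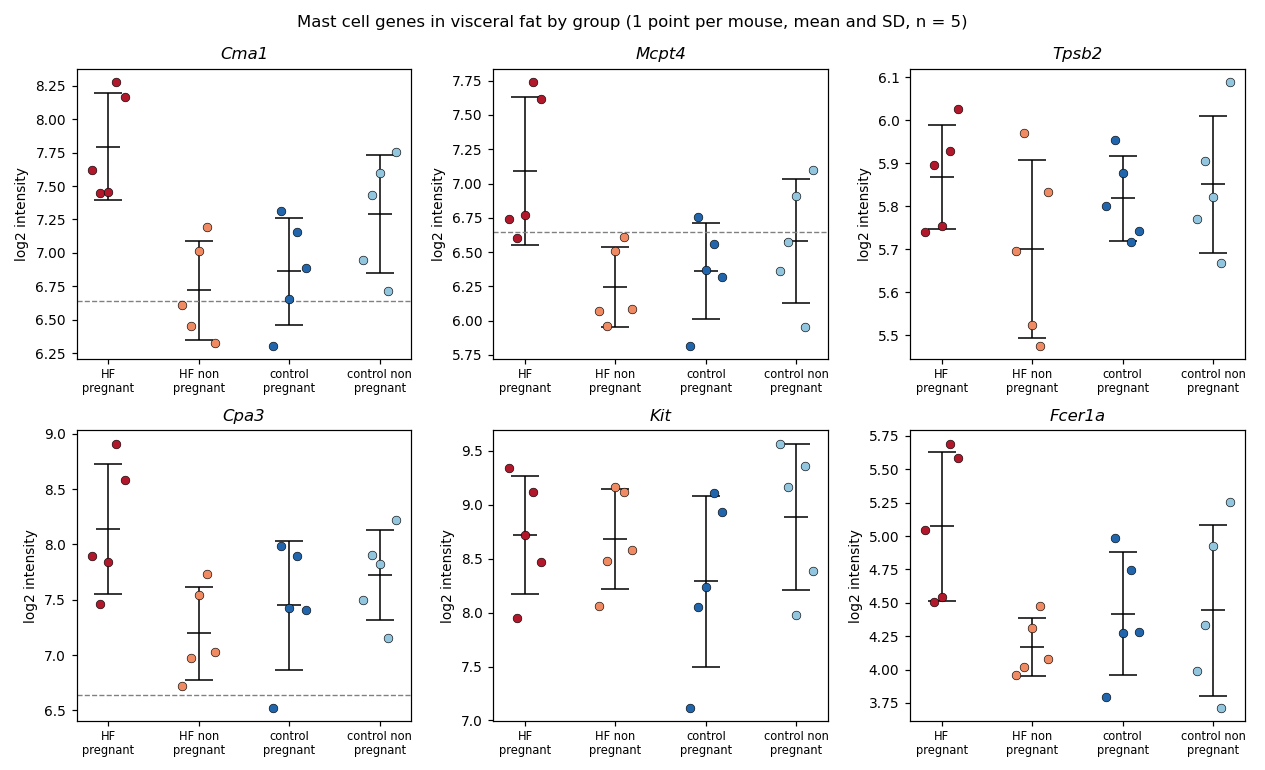
Log2 intensity of the 6 genes (vertical axis, own scale per gene) in the 4 groups (horizontal axis), with 1 point per mouse, bars for mean and SD (n = 5), and a dashed line at an intensity of 100 where it falls in the range shown. The Cma1 points of HF pregnant mice, 174.3 and above in intensity, lie above those of HF non pregnant and control pregnant mice, and Kit overlaps in all groups.

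In the limma fit over all tested probe sets, no member that may be tested in a comparison passed an adjusted p of 0.05 there. Counts of members are given only for those whose values may be tested in a comparison, which leaves out Cma1 where groups are compared and Mcpt4 where HF pregnant mice enter. For HF pregnant mice against HF non pregnant mice, 0 of 2 (Cpa3 and Kit) passed, beside 0.0252% of all tested probe sets, and 1 of 2 (Cpa3) had an unadjusted p under 0.05 with a higher level, beside 2.21% of all tested probe sets. For HF pregnant against control pregnant mice, 0 of 2 passed, beside 0.192%, and Cpa3 again had an unadjusted p under 0.05 with a higher level, beside 4.9%. Cpa3 moved with Cma1 from mouse to mouse (r = 0.925), so its p-values are not free of the choice of the list by Cma1. Nothing is read from these counts about the list as a group. With arrays weighted by their estimated quality, HF pregnant minus HF non pregnant was 0.74 for Cma1, 0.52 for Mcpt4 and 0.57 for Cpa3, in a fit that called 2679 probe sets for that comparison in place of 5. With Cma1 left out because it chose the list, only Fcer1a did not overlap between HF pregnant mice and HF non pregnant mice. Of 45037 probe sets, 0.768% were higher without overlap there. With Cma1 left out, all members overlapped between HF pregnant and control pregnant mice, beside 0.866%. Fcer1a was under 100 throughout and moved with Cma1 from mouse to mouse, so nothing is read from its place.

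For pregnancy on the control diet, and for diet in non pregnant mice, the differences of all 6 genes were negative, although with array weights those of Mcpt4 and Cpa3 turned positive in both comparisons and that of Fcer1a in the first. The weights moved Cma1 to -0.10 for control pregnant minus control non pregnant and to -0.03 for HF non pregnant minus control non pregnant. For control pregnant against control non pregnant mice, 0 of 3 (Mcpt4, Cpa3 and Kit) passed, beside 0%, and 0 of 3 had an unadjusted p under 0.05, beside 2.9%. For HF non pregnant against control non pregnant mice, 0 of the same 3 passed, beside 0%, and 0 of 3 had an unadjusted p under 0.05, beside 17.7%. The differences in that comparison were -0.33 (SE 0.25, adjusted p 0.384) for Mcpt4, -0.52 (SE 0.30, adjusted p 0.293) for Cpa3, -0.21 (SE 0.38, adjusted p 0.721) for Kit and -0.28 (95% interval -0.89 to 0.34) for Fcer1a.

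The difference between diets in the response to pregnancy, HF minus control, is the comparison that chose the list, and its values describe the genes only. It was 1.06 for Mcpt4 and 1.21 for Cpa3, beside the 1.502 of Cma1, and 0.93 for Fcer1a, 0.64 for Kit and 0.20 for Tpsb2. With array weights it was 0.84 for Cma1, 0.43 for Mcpt4 and 0.53 for Cpa3. Averaged over the other factor, no tested member passed for diet or for pregnancy in the fit without weights. Diet averaged over pregnancy gave 0.18 (SE 0.17, adjusted p 0.463) for Cma1, 0.08 (adjusted p 0.806) for Cpa3, 0.11 (adjusted p 0.792) for Kit and, without a test, 0.20 for Mcpt4. The count was 0 of 3, beside 1.24% at the adjusted threshold, and 0 of 3 at an unadjusted p under 0.05, beside 29.6%. With array weights Cma1, at 0.39, passed the adjusted threshold, in a fit that called 9136 probe sets in place of 246. Pregnancy averaged over diet gave 0.32 for Cma1, 0.33 for Cpa3 and -0.28 for Kit, each with an adjusted p of 1, and 0.32 for Mcpt4 without a test. The count was 0 of 3, beside 0.0101%, and 0 of 3 at an unadjusted p under 0.05, beside 4.59%.

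**Figure D2:**
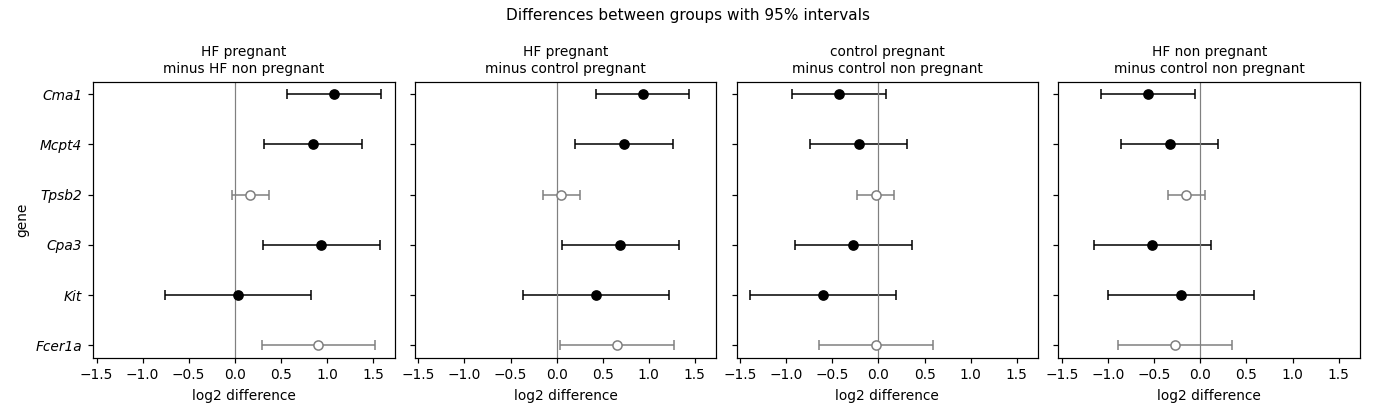
Log2 differences between groups (horizontal axis, first group minus second) with unadjusted 95% intervals for the 6 genes (vertical axis), 1 panel per comparison of groups. Filled symbols are genes that entered the test and open grey symbols are genes under 100 in every mouse. The intervals of Cma1, and those of Mcpt4 where HF pregnant mice enter, are drawn as a description and are not read as a test. The differences of all 6 genes lie above 0 in both panels that set HF pregnant mice against another group, and the intervals of Tpsb2 and Kit include 0 in all 4 panels.

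Within groups, Cma1, Mcpt4, Cpa3 and Fcer1a moved together from mouse to mouse, while no correlation of Kit or Tpsb2 with any of them exceeded 0.371. This was measured on the log2 deviation of each mouse from its group mean, which removes the differences between group means. The deviations of Cma1 and Mcpt4 correlated at r = 0.948 (rho = 0.919), those of Cma1 and Cpa3 at r = 0.925 (rho = 0.898), and those of Mcpt4 and Cpa3 at r = 0.942 (rho = 0.943), over 20 mice. Each had a permutation p of 1e-05 for r and for rho, the smallest that 100000 permutations within groups can give, and an adjusted p of 2e-05 over the 6 pairs tested. Without the 2 mice farthest from the median of the first gene, r was 0.937, 0.912 and 0.929 (adjusted permutation p 0.00012, 0.00016 and 0.00015). Fcer1a, described without a test, followed the same course, with r = 0.925 with Cma1, 0.943 with Mcpt4 and 0.894 with Cpa3.

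The same mouse had the highest Cma1, Mcpt4, Cpa3 and Fcer1a of its group in all 4 groups. In HF pregnant mice it was mouse 4 (310.8, 214.1, 481.3 and 51.7), and in HF non pregnant mice also mouse 4 (146.3, 97.8, 212.3 and 22.2). In control pregnant mice it was mouse 2 (159.0, 107.9, 253.8 and 31.6), and in control non pregnant mice mouse 5 (216.3, 137.1, 298.6 and 38.2). The lowest mouse was shared by all 4 genes in 3 groups and by 2 of the 4 in HF non pregnant mice. The log2 difference between Mcpt4 and Cma1 in the same mouse had an SD of 0.17 over all mice, against 0.51 for Mcpt4 and 0.57 for Cma1. Cma1 and Mcpt4 are related chymases, and cross-hybridization between their probe sets was not tested. Cpa3 and Fcer1a are unrelated to them in family.

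Kit did not share this pattern. Its deviations correlated at r = 0.149 with Cma1 (rho = 0.042, adjusted permutation p 0.684 for r and 0.961 for rho), at 0.101 with Mcpt4 (rho = -0.014, adjusted p 0.694 and 0.961) and at 0.371 with Cpa3 (rho = 0.215, adjusted p 0.225 and 0.607). The highest Kit of a group was in mouse 1 (HF pregnant), mouse 3 (HF non pregnant), mouse 4 (control pregnant) and mouse 1 (control non pregnant), in no group the mouse highest for the proteases. Kit and Fcer1a correlated at r = 0.034. Tpsb2 correlated weakly with the proteases (r = 0.128 to 0.252).

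**Figure D3:**
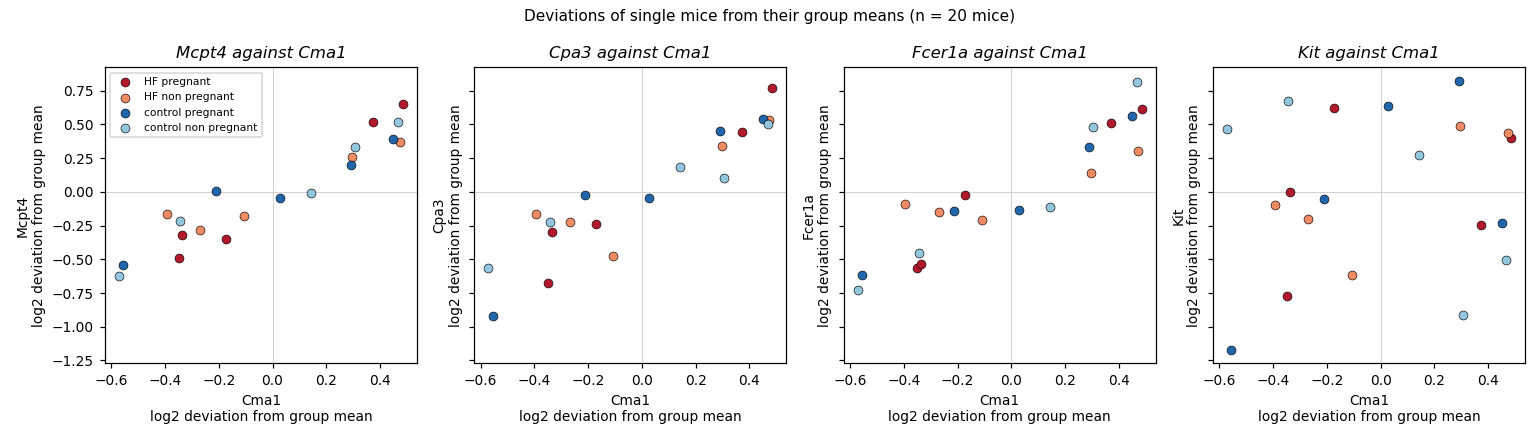
Log2 deviation of each mouse from its group mean for Mcpt4, Cpa3, Fcer1a and Kit (vertical axes) against that of Cma1 (horizontal axes), 20 mice coloured by group. Points rise along a line for Mcpt4 (r = 0.948), Cpa3 (r = 0.925) and Fcer1a (r = 0.925) and scatter for Kit (r = 0.149).

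Kit instead varied with markers of smooth muscle. Against the mean deviation of 6 smooth muscle and pericyte markers (Acta2, Myh11, Tagln, Cnn1, Des and Rgs5), Kit gave r = 0.894 and rho = 0.922 (adjusted permutation p 0.00022 for both, over 22 relations of 11 marker lists with Kit or with the mean of Cma1, Mcpt4 and Cpa3), and r = 0.884 without the 2 mice farthest from the median. The mean of Cma1, Mcpt4 and Cpa3 gave r = 0.141 and rho = 0.108 with the same markers (adjusted p 0.822 and 0.866) and r = -0.128 without 2 mice in the same way. Ano1, a chloride channel that marks interstitial cells of Cajal and is also found in other cells, gave r = 0.798 and rho = 0.841 with Kit (adjusted p 0.00297 and 0.00055) and r = 0.011 and rho = 0 with the mast cell mean (adjusted p 0.992 and 1). Without the 2 mice farthest from the median of Ano1, r was 0.871 with Kit and 0.368 with the mast cell mean. The genes whose deviations were most like those of Kit were Cntn1 (r = 0.978), B230219D22Rik (0.975), Ppp1r12a (0.975), Tspyl4 (0.971) and Rtn1 (0.968) over 20 mice and 18193 genes less the 6 members, a search chosen after the values had been seen. Slc18a2, a vesicular monoamine transporter of mast cells and neurons, gave r = 0.911 with Kit and 0.186 with the mast cell mean, and Kitl, the ligand of KIT, gave 0.812 and -0.01. These were the highest r with Kit among the other mast cell genes listed. Several of that list went the other way with Kit, the lowest being Gata2 (r = -0.784), Stat5a (-0.693), Ltc4s (-0.516) and Tal1 (-0.492). Whether Kit was read here in mast cells or in other cells was not tested.

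**Figure D4:**
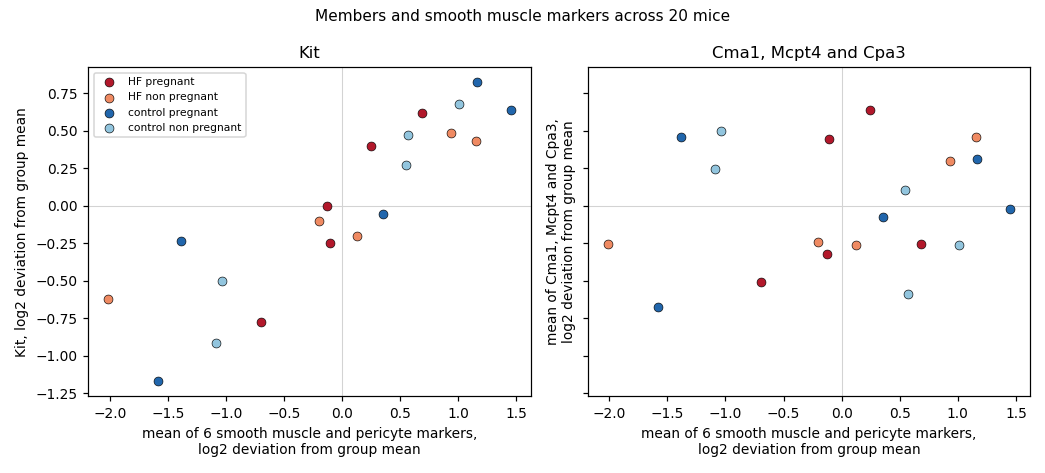
Log2 deviations from group means of Kit (left, vertical axis) and of the mean of Cma1, Mcpt4 and Cpa3 (right, vertical axis) against the mean deviation of 6 smooth muscle and pericyte markers (horizontal axes), 20 mice coloured by group. Kit rises with the markers (r = 0.894) and the mast cell mean does not line up with them (r = 0.141).

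By the rule fixed for the likeness of other genes, the mean deviation of the 4 tested members, Kit included, was set against the 18193 genes less the 6 members. The 10 with the highest r over 20 mice were Mllt11 (0.739), Sap30 (0.733), 4921524J17Rik (0.706), Trdmt1 (0.702), H2aw (0.695), Mrgprb1 (0.689), Acot11 (0.680), Pla2g7 (0.679), Eif1b (0.672) and Lamtor3 (0.666). Mrgprb1 was on the list of other mast cell genes, among the receptors. Against the mean of Cma1, Mcpt4 and Cpa3 alone, a mean chosen after the values had been seen, Mrgprb1 came first among the genes other than the members (r = 0.834, rho = 0.833), followed at 0.696 by 1700066M21Rik, although its intensity was only 10.7 to 25.6. Fcer1a stood higher against this mean, at r = 0.939, while Kit gave 0.224 and Tpsb2 0.183. The 33 other mast cell genes measured beside Mrgprb1 gave r of -0.364 to 0.471 with it (median 0.105), among them Tpsab1 at 0.386, Hdc at 0.181 and Ms4a2 at -0.215. The Mrgprb1 HF pregnant minus HF non pregnant difference was 0.40 (95% interval 0.04 to 0.75) and its HF pregnant minus control pregnant difference was 0.41 (0.05 to 0.77), without a test because it was under 100.

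No other mast cell gene passed the test. Of 39 listed, 34 were measured and 16 were tested, and 0 of 16 passed in each of the 7 comparisons. For HF pregnant mice against HF non pregnant mice their median difference was 0.06, beside -0.01 for all tested probe sets, with 3 of 16 higher and 0 lower at an unadjusted p under 0.05, beside 2.21% and 2.45% of all tested probe sets. For HF pregnant against control pregnant mice the median was 0.15, beside 0.05, with 1 of 16 higher (Tal1, 0.25) and 1 lower (Stat5a, -0.29), beside 4.9% and 7.93%. The 6 further proteases measured, among them Tpsab1 (20.5 to 29.4) and the mucosal mast cell proteases Mcpt1 (10.8 to 14.5) and Mcpt2 (13.0 to 18.3), were all left out by the filter, as were the basophil markers measured. Ms4a2, the beta chain of the IgE receptor, read 15.2 to 21.6, and Hdc, which makes histamine, read 43.0 to 65.7.

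Among the tested genes of receptor signalling, the differences between HF pregnant mice and HF non pregnant mice were 0.05 (SE 0.23) for Fcer1g, the gamma chain shared by several Fc receptors, 0.13 (SE 0.44) for Il18r1, -0.42 (SE 0.35) for the adaptor Lat2, -0.32 (SE 0.50) for the kinase Syk, 0.23 (SE 0.24) for Kitl and 0.49 (SE 0.35) for Il33, an alarmin that acts on mast cells. Among genes of mediator synthesis and granules they were -0.03 (SE 0.15) for Alox5, -0.07 (SE 0.16) for Alox5ap, 0.15 (SE 0.32) for Ltc4s, -0.06 (SE 0.34) for Srgn, the core protein of granule proteoglycan, and 0.08 (SE 0.07) for Ndst2, which acts in heparin synthesis. The 3 genes with an unadjusted p under 0.05 were all transcription factors active in mast cells, Gata2 at 0.25 (SE 0.11, adjusted p 1), Mitf at 0.51 (SE 0.20, adjusted p 0.938) and Tal1 at 0.30 (SE 0.11, adjusted p 0.825), where Mitf, Tal1 and Stat5a were named after their values were seen. Over 20 mice their deviations correlated with the mast cell mean at r = -0.165, -0.051 and 0.251. Several of these genes are also read in other leukocytes or in stroma.

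Other cell types varied between mice as well. The mean deviation of the macrophage list, from the mean of all mice, was 0.21 ± 0.20 for HF pregnant mice, 0.10 ± 0.26 for HF non pregnant mice, -0.15 ± 0.52 for control pregnant mice and -0.16 ± 0.22 for control non pregnant mice (SD, n = 5 each). In the same order of groups, smooth muscle and pericyte markers averaged 0.427, -0.106, -0.559 and 0.238, with an SD of 0.511 to 1.414. Ano1 averaged 0.364, -0.144, -0.367 and 0.147, and mesothelium 0.234, -0.274, -0.055 and 0.095. As for Cma1, the mean of each of these was highest in HF pregnant mice and next in control non pregnant mice. The macrophage list correlated with the mast cell mean at r = 0.495 (rho = 0.406, adjusted permutation p 0.213 and 0.398) and at r = 0.295 without the 2 mice farthest from the median. B cell markers gave r = 0.277 (rho = 0.317, adjusted p 0.698 and 0.556) and T cell markers r = 0.194 (rho = 0.290, adjusted p 0.822 and 0.571), with single-mouse deviations of -2.77 to 2.26 for B cells and -2.11 to 1.80 for T cells. A pair of mice on the control diet read high in pancreatic acinar genes, at deviations of 5.83 (control pregnant mouse 2) and 5.39 (control non pregnant mouse 4). These were the highest control pregnant and the lowest control non pregnant mouse in Cma1, Mcpt4, Cpa3 and Fcer1a. Without them, HF pregnant minus control pregnant was 1.04 for Cma1, 0.83 for Mcpt4, 0.82 for Cpa3 and 0.80 for Fcer1a. Control pregnant minus control non pregnant was then -0.68 for Cma1 (-0.43 with them), -0.47 for Mcpt4 (-0.22), -0.55 for Cpa3 (-0.27), -0.35 for Fcer1a (-0.03) and -0.42 for Kit (-0.60). HF non pregnant minus control non pregnant was -0.71 for Cma1, -0.49 for Mcpt4, -0.66 for Cpa3 and -0.46 for Fcer1a. Pregnancy averaged over diet was 0.20 for Cma1, 0.19 for Mcpt4 and 0.20 for Cpa3. In RNA from whole fat, a change in the number of mast cells and a change in RNA per cell cannot be told apart.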

How the data were processed

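RNA of visceral fat from 20 mice was measured on 1 array each. The deposited intensity of each probe set is on the linear scale; the authors had processed all scans jointly in Bioconductor (affy, R 2.8.0) by robust multi-array average. Scan dates were not given in the sources used here, the labels name Trizol and the study columns for RNA extraction, and whether that differed between mice was not tested. The log2 was taken without further normalization. The 64 manufacturer's control probe sets were left out, and probe sets above 100 on at least 5 of 20 arrays were kept (19802). Of the 45101 probe sets, 34958 carried 1 gene symbol, 932 several and 9211 none; symbols came from the platform annotation.

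A linear model with one mean per group (limma 3.58.1, R 4.3.3) was used, with Benjamini-Hochberg adjustment over all kept probe sets and a threshold of 0.05. Intervals are 95% from this fit. Correlations were computed in Python 3.11.15 (numpy 2.4.6, scipy 1.17.1) on deviations from group means, with two-sided permutation of mice within groups. The procedure was tested on simulated data. The precision is limited by the number of arrays. The study states that the female mice came from different litters. Nothing states whether these mice shared cages. The limma p-values set group differences against the spread between mice within groups, and take the mice as independent.

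The members, the lists and the tests were chosen with earlier results of these data known. All 6 members are named, with up to 12 other tested mast cell genes in list order and the 10 genes most like the members' mean; Slc18a2, Mitf, Tal1, Stat5a, Mrgprb1 against the shorter mean, and the genes most like Kit were named after their values were seen. Replicate numbers were not taken to pair the mice. Alternatives concerned the filter (none, or a mean above 100), the spread (trended robust moderation, weights for arrays, or only the groups compared), the scaling (median centring or a second quantile normalization), the probe sets of a gene (their mean), low values (a floor of 100), the mice (a replicate block, each mouse left out, 2 mice high in pancreatic genes left out) and the call (a 1.5-fold change at an unadjusted p under 0.05).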

Additional observations from a re-analysis of the deposited data

How the results depend on the processing

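The count of members past the adjusted threshold covers only those that may be tested in a comparison. It was 0 of 2 where HF pregnant mice were compared with 1 other group. In the other comparisons, but for that which chose the list, it was 0 of 3. The shares over all tested probe sets are given with these counts above. The counts stayed at 0 under the filters, the moderation with trend, the fit to the compared groups, both scalings, the mean of probe sets and the floor of 100. They also stayed at 0 with the replicate block, without the 2 mice high in pancreatic genes and without any 1 mouse. With array weights Cma1 passed for HF pregnant mice against HF non pregnant mice (log2 difference 0.74 in place of 1.08) and for HF pregnant against control pregnant mice. It also passed for diet averaged over pregnancy (0.39 in place of 0.18). The first 2 of these are comparisons in which Cma1 is described only, and no call is drawn from them. The weights raised the number of probe sets called in these comparisons to 2679 (5 without weights), 1365 (38) and 9136 (246), and to 7489 (0) for HF non pregnant against control non pregnant mice; the cause was not tested. Weights turned the sign of Kit for HF pregnant mice against HF non pregnant mice (-0.28), of Mcpt4 (0.0927) and Cpa3 (0.0356) for control pregnant against control non pregnant mice, and of Mcpt4 (0.19) and Cpa3 (0.034) for HF non pregnant against control non pregnant mice. The call by a 1.5-fold change at an unadjusted p under 0.05 was read only for Cpa3 and Kit where HF pregnant mice enter. Cma1 chose the list and Mcpt4 entered the test through HF pregnant mice, so neither was counted. Cpa3 was higher by this rule, and Kit was not, in HF pregnant mice than in HF non pregnant or control pregnant mice. Of all tested probe sets, 0.651% and 0.465% were higher by the rule in these comparisons. The difference between diets in the response to pregnancy chose the list, so no count is given for it. Cpa3 moved with Cma1 from mouse to mouse, so nothing is read from its call.

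With 1 mouse left out, Kit ranged from -0.12 to 0.23 for HF pregnant mice against HF non pregnant mice and from -0.0349 to 0.21 for diet, and Cpa3 from -0.0317 to 0.17 for diet; no other tested member changed sign. HF pregnant minus HF non pregnant stayed between 0.95 and 1.19 for Cma1, 0.69 and 0.97 for Mcpt4 and 0.75 and 1.11 for Cpa3. Probe sets called, beside the 5 and 38 above, ranged from 3 to 10 and from 15 to 62, and for diet from 41 to 4321, the last without control pregnant mouse 2. The replicate block left 3, 17 and 19 probe sets called in the same comparisons, and no tested member. In these comparisons the fit to the compared groups called 0 and 64 probe sets, and for diet no filter called 112, the mean of probe sets 157, the floor 161, and the fit without the 2 mice high in pancreatic genes 2011; no filter called 25 for HF pregnant against control pregnant mice. Deviations of the 30 pairs of mice with the same number in different groups correlated at a median of -0.161 (range -0.749 to 0.674). Whether mice with the same number shared a step of handling was not tested. The correlations among Cma1, Mcpt4 and Cpa3 kept their call without the 2 mice farthest from the median, and those of Kit with them stayed past no threshold. Values under 100 limit Mcpt4, Tpsb2 and Fcer1a.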
